A study of Mus musculus with 2 samples.

Results

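The genes described here are 8 that encode enzymes of the route from acetyl-CoA to squalene, Acat2, Hmgcs1, Mvk, Pmvk, Mvd, Idi1, Fdps and Fdft1. They were chosen by gene name, from what the enzymes do, and are 8 of the 16722 genes tested and of the 27962 gene names on the array, with 15 probes of which 13 were kept. Liver RNA of male C57BL/6 apoE-KO mice was measured on single-colour Agilent whole mouse genome arrays, 3 for normal chow and 3 for the high-Chol diet, which was the same chow with 1.25% Chol given for 1 week from 10 weeks of age. Both diets were given to mice without apoE, which have a raised plasma Chol even on normal chow, and no wild-type group was used here. The labels and the methods name 3 experiments per diet but not how many mice went into each, so the p-values below measure only the spread between these arrays. Each value is the log2 signal of a probe relative to the 75th percentile of its array, and values are given in 1 order throughout, the normal chow arrays at positions 1, 2 and 3 of slide 1, then the high-Chol array of slide 1, then the high-Chol arrays at positions 2 and 3 of slide 2. The probe of Apoe itself passed the filter and read 3.31, 1.66 and 3.81 on the normal chow arrays against 3.20, 3.18 and 3.56 on the high-Chol diet, a clear signal in mice labelled as lacking the gene. Whether this probe lies in the disrupted part of Apoe is not given in the sources used here, so it does not settle the label.

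In this pathway acetyl-CoA units are joined to acetoacetyl-CoA and then to HMG-CoA, from which mevalonate is made. Mevalonate is phosphorylated and decarboxylated to the isoprene unit isopentenyl diphosphate, these units are joined to farnesyl diphosphate, and a pair of farnesyl groups gives squalene, the precursor of every sterol. The liver is a main site of Chol synthesis, and the transcription factor SREBP-2, which is held in the endoplasmic reticulum when sterols are plentiful, is known to drive most of these genes together with the factors NF-Y and Sp1.

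Promoter windows of these genes are shown first because these genes are known targets of shared factors. RefSeq windows (GRCm38.p6, 250 bases before to 50 after the annotated start) were at hand for 6 of the 8 genes and not for Fdps and Fdft1. The windows of Hmgcs1 (chr13:119690101-119690400, plus strand), Mvk (chr5:114444019-114444318, plus strand), Mvd (chr8:122443373-122443672, minus strand) and Idi1 (chr13:8885356-8885655, plus strand) belong to genes whose signal was lower on the high-Chol diet, and that of Acat2 (chr17:12960676-12960975, minus strand) to the gene with the smallest difference. Capitals mark CCAAT, the box known to be bound by NF-Y, and CACNCCAC, a shorter form of the sterol regulatory element TCACNCCAC that SREBP binds, each on either strand.
Hmgcs1: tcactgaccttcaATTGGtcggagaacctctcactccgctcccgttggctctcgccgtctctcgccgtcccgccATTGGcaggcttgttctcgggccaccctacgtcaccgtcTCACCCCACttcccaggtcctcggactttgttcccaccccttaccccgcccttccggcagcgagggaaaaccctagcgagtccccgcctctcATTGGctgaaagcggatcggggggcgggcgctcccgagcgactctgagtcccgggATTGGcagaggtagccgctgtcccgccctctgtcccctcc
Mvk: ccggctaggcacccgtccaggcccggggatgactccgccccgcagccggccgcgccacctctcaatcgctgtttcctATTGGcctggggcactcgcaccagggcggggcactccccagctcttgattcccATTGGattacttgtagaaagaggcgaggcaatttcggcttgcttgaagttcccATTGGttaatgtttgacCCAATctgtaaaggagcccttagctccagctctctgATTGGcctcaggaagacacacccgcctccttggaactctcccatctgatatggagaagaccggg
Mvd: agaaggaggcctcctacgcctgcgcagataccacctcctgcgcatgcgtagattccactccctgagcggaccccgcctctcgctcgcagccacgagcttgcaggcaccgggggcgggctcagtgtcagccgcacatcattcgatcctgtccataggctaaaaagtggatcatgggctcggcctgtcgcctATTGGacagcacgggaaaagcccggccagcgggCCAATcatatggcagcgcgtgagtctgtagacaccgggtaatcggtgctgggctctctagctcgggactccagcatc
Idi1: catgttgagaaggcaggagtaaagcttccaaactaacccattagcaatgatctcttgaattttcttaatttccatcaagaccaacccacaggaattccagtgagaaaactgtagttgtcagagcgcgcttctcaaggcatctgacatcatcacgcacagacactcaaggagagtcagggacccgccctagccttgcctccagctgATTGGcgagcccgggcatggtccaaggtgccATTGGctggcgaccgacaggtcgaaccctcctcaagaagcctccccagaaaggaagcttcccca
Acat2: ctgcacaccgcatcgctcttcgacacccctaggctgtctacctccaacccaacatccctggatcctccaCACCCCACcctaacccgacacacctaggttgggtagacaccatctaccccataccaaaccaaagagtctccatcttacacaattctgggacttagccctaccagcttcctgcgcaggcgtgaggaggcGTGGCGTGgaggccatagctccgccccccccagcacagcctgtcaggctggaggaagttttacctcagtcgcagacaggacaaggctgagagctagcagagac

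The full element TCACNCCAC, searched on both strands like the other motifs, stood in the window of Hmgcs1 and in no other of the 6 genes, against 1.44% of the 27025 genes with a window. The shorter CACNCCAC, which every full element contains, was found in Acat2 and Hmgcs1, against 7.12% of all genes. CCAAT was found in 5 of the 6 genes, all but Acat2, against 41.1% of all genes, and the GC box GGGCGG, known to be bound by Sp1, in all but Pmvk, against 38.2%. Of the 11 genes of the later sterol steps, 9 had a window, and all 9 held CCAAT and GGGCGG while none held TCACNCCAC or CACNCCAC. Mvk held the most CCAAT matches, followed by Hmgcs1, and in Idi1 the pair of matches lay within the last 50 bases before the start. A match is a run of letters and not a measured binding site, and a window without one says nothing of sequence outside it.

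**Figure D1:**
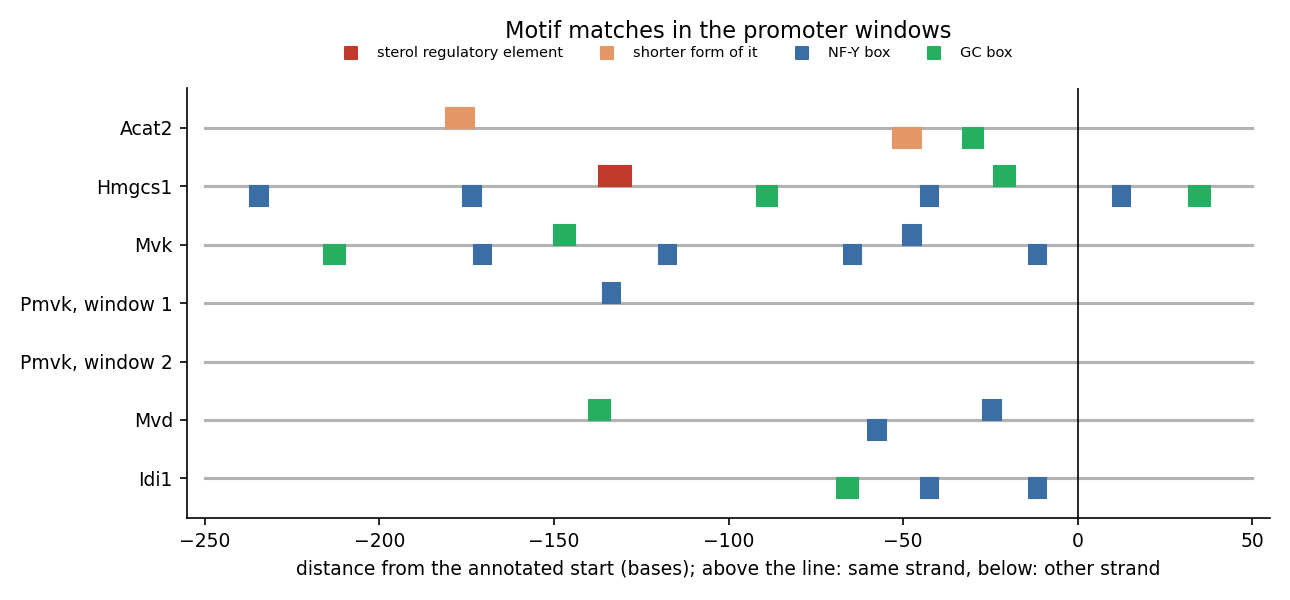
Motif matches in the promoter windows of the 6 genes that have one, Pmvk with a pair of windows. The horizontal axis is the distance in bases from the annotated start, boxes above a line are matches on the gene's strand and boxes below it on the other strand. CCAAT (blue) is present in every gene except Acat2, the full sterol regulatory element (red) in Hmgcs1 alone of these genes, and its shorter form (orange) in Acat2.

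The signal of 7 of the 8 genes was lower on the high-Chol diet, which was also the case for 52.2% of all genes tested. By the brightest probe of each gene, Idi1 and Fdps differed most, by -1.79 each on the log2 scale, while with the probes of a gene averaged Fdps gave -1.26, less than Idi1 (-1.82), Fdft1 (-1.54), Mvd (-1.37) and Mvk (-1.31). Acat2 differed by 0.09, with a sign that turned to -0.15 when arrays were scaled to their median. The median of the 8 differences was -1.34, beside -0.02 over all 16722 genes, and it was -0.85 with slide as a block and -0.81 with normexp (a model-based background correction). In whole liver, fewer cells of a type and less RNA per cell cannot be told apart. No member passed an adjusted p of 0.05 in limma, a threshold passed by 38 genes in the lower direction (0.227%) and 450 in the higher direction (2.69%). At an unadjusted p of 0.05, 5 members were lower (Mvk, Mvd, Idi1, Fdps and Fdft1), beside 1477 of all genes (8.83%). The diets did not overlap in 4 of the 7 members with a value on every array (Mvd, Idi1, Fdps and Fdft1), beside 2299 of 16430 genes (14.0%), and in 2 of them (Mvd and Fdps) with normexp, beside 1.54% of genes. A fold of more than 1.5 lower was reached by all but Acat2, beside 977 of all genes (5.84%). The members spread more on normal chow than all genes did (median SD 0.67 against 0.20), so that share is not of genes alike in spread. With slide as a block Mvk (-0.34) and Pmvk (-0.20) did not reach the fold, nor did Pmvk without the last high-Chol array (-0.15).

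**Figure D2:**
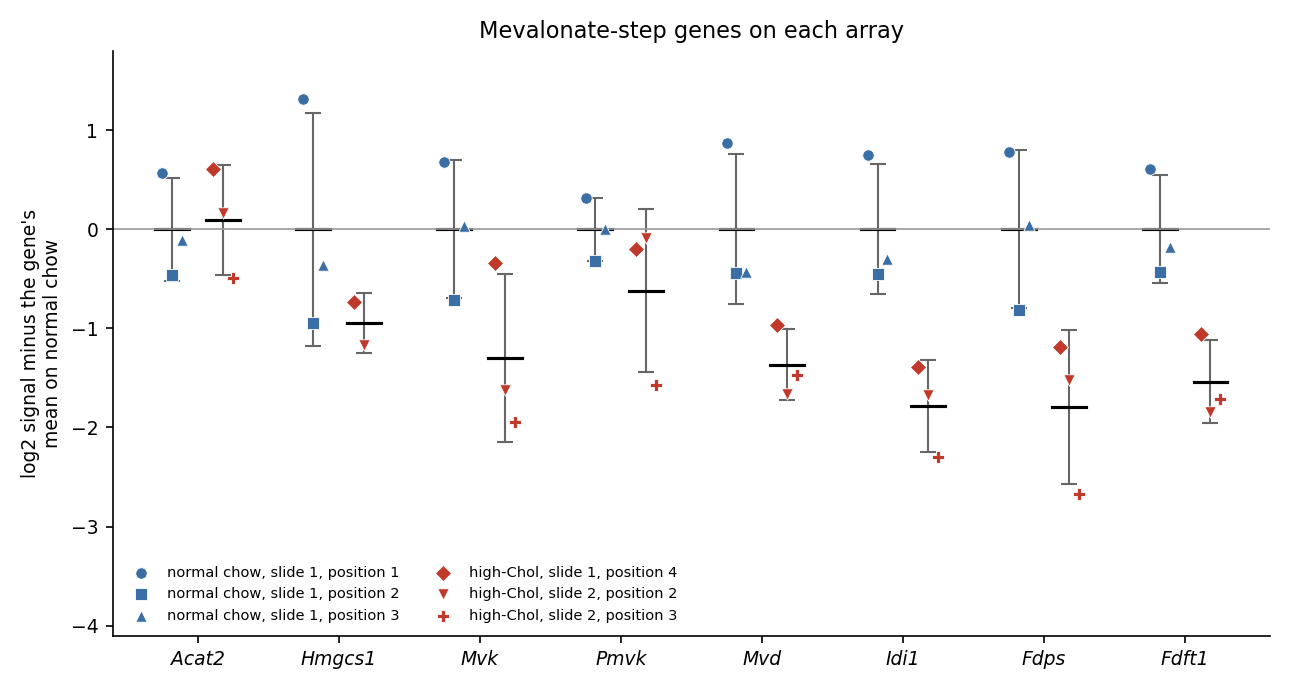
Log2 signal of the 8 mevalonate-step genes on each array, minus the gene's mean on normal chow. Blue symbols are the 3 normal chow arrays and red symbols the 3 high-Chol arrays, black bars are means and whiskers SD. In Mvd, Idi1, Fdps and Fdft1 all red symbols lie below all blue symbols, in Acat2 the diets overlap and the sign of the mean difference turns with median scaling, and Hmgcs1 has no value for the last high-Chol array.

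Acat2 encodes the cytosolic acetoacetyl-CoA thiolase, which joins acetyl-CoA units (it is not sterol O-acyltransferase, for which ACAT is also used). Its single probe is placed by the array annotation on the plus strand (mm7 chr17:11818413-11818472), while the RefSeq gene shown above is on the minus strand, so its link to Acat2 rests on the name in the array design. The probe read 5.68, 4.66 and 5.01 on the normal chow arrays against 5.72, 5.28 and 4.62 on the high-Chol diet. The diets covered the same range, with the highest and the lowest value of all 6 arrays both on the high-Chol diet. The difference was 0.09 (standard error 0.36, 95% interval -0.75 to 0.93, adjusted p = 0.895 from limma), so that these arrays leave a wide range of changes in either direction. Besides median scaling, the sign turned when the second normal chow array (-0.14) or the high-Chol array of slide 1 (-0.17) was left out. The neighbouring gene Acat3, a close relative of Acat2, had probes with differences of 0.10 and 0.13 and the same order of arrays in the high-Chol group, and cross-hybridization between the pair was not tested.

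Hmgcs1 encodes the cytosolic HMG-CoA synthase, the enzyme of the next condensation. Its brightest probe read 6.91, 4.65 and 5.23 on the normal chow arrays against 4.87 and 4.43 on the high-Chol arrays with a value, while the spot of the last high-Chol array was marked as an outlier by the scanner software and left out (3.27 when kept). The first normal chow array stood well above the other two, and the high-Chol array of slide 1 lay inside the normal chow range. The difference was -0.95 (standard error 0.65, 95% interval -2.52 to 0.63, adjusted p = 0.415 from limma), and it ran from -0.29 without the first normal chow array to -1.42 without the second, with -1.41 when the outlier spot was kept and -1.65 in the authors' values. A second probe with a value on every array gave -0.92, from -0.48, -2.83 and -2.07 on normal chow to -2.05, -2.54 and -3.55, and its diets overlapped. The remaining probe was not well above background on any normal chow array and was not used. The array annotation places all 3 probes on an unassigned sequence of mm7.

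Mvk, Pmvk and Mvd encode the kinases and the decarboxylase that turn mevalonate into isopentenyl diphosphate. The brighter Mvk probe read 1.32, -0.08 and 0.67 on the normal chow arrays against 0.29, -0.99 and -1.31 on the high-Chol diet. Only the high-Chol array of slide 1 lay within the normal chow range, and the arrays of slide 2 lay below it. Mvk differed by -1.30 (standard error 0.49, 95% interval -2.47 to -0.14, adjusted p = 0.204 from limma), and its second probe by -1.31. With normexp the difference of Mvk was -0.71. The brighter probe crosses an intron, with its 60 bases spread over 2948 bases of chr5 in mm7 (113677760 to 113680707, plus strand), and is shown because its letters run across a splice junction.
Mvk probe: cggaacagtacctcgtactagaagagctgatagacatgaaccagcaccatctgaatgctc

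Pmvk, phosphomevalonate kinase, read 4.96, 4.33 and 4.66 on the normal chow arrays against 4.45, 4.56 and 3.08 on the high-Chol diet. The high-Chol array of slide 1 and that at position 2 of slide 2 lay inside the normal chow range, and the last array alone lay below it. The difference was -0.62 (standard error 0.40, 95% interval -1.58 to 0.33, adjusted p = 0.392 from limma), -0.38 with normexp and -0.15 without the last array. Its second probe, which adjoins the first on chr3 of mm7 (89595419 to 89595478 beside 89595479 to 89595538, plus strand), gave -0.87.

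Mvd, the decarboxylase, read 1.65, 0.34 and 0.34 on the normal chow arrays against -0.19, -0.88 and -0.69 on the high-Chol diet with its single probe (mm7 chr8:121075855-121075914, minus strand). All high-Chol arrays lay below all normal chow arrays, with a gap of 0.53 between the nearest arrays. The diet means were 0.78 ± 0.76 and -0.59 ± 0.36 (SD, n = 3 for each), which is -1.37 apart (standard error 0.39, 95% interval -2.28 to -0.46, 2.58-fold lower). The unadjusted p was 0.00937 and the adjusted p 0.126 in limma.

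Idi1 encodes isopentenyl-diphosphate isomerase, which supplies dimethylallyl diphosphate for the chain that follows. Its brighter probe read 5.77, 4.57 and 4.73 on the normal chow arrays against 3.63, 3.36 and 2.72 on the high-Chol diet. The diets were separated by 0.94, the widest gap among the members with a value on every array, but they overlapped with normexp, where the difference was -1.46. The diet means were 5.02 ± 0.65 and 3.24 ± 0.46 (SD, n = 3 for each), which is -1.79 apart (standard error 0.37, 95% interval -2.66 to -0.91, 3.45-fold lower). Its unadjusted p of 0.00193 became 0.0589 after adjustment in limma. The second probe separated the diets as well, with 2.05, 0.50 and 0.96 on the normal chow arrays against -0.30, -0.72 and -1.06 on the high-Chol diet, with -1.86 between the means. The array annotation places both probes on chr2 of mm7, not on the chromosome of the RefSeq gene shown above, and their link to Idi1 rests on the name given in the array design.

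Fdps and Fdft1 close the route. Fdps encodes farnesyl diphosphate synthase, and Fdft1 encodes squalene synthase, the first enzyme committed to sterols. Both bright probes cross an intron in mm7, over 141 bases of chr3 (89208691 to 89208831, minus strand) for Fdps and over 4241 bases of chr14 (58010811 to 58015051, minus strand) for Fdft1, and they are shown because the differences of both genes rest on them.
Fdps probe: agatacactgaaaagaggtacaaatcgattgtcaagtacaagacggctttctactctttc
Fdft1 probe: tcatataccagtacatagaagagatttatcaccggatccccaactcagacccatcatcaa

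Fdps read 6.30, 4.70 and 5.55 on the normal chow arrays against 4.33, 3.99 and 2.85 on the high-Chol diet. The diets did not overlap, and the nearest arrays were 0.37 apart. The diet means were 5.52 ± 0.80 and 3.72 ± 0.78 (SD, n = 3 for each), which is -1.79 apart (standard error 0.50, 95% interval -2.98 to -0.61, 3.47-fold lower, adjusted p = 0.125 from limma). A second probe, far dimmer and at another place of the same gene (mm7 chr3:89212905-89212964), read -1.19, -1.16 and -1.48 on the normal chow arrays against -2.34, -1.98 and -1.67 on the high-Chol diet. Its diets did not overlap either, but the difference was -0.72, less than that of the bright probe. Fdps is among the genes that the study itself selected on these arrays, so its direction is not independent of that choice.

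Fdft1 read 4.17, 3.13 and 3.39 on the normal chow arrays against 2.51, 1.73 and 1.85 on the high-Chol diet. All high-Chol arrays were below all normal chow arrays, with a gap of 0.63, but the diets overlapped with normexp, where the difference was -1.20. The diet means were 3.57 ± 0.54 and 2.03 ± 0.42 (SD, n = 3 for each), which is -1.54 apart (standard error 0.33, 95% interval -2.31 to -0.77, 2.90-fold lower, adjusted p = 0.0615 from limma). Its other probe was not well above background on any array and was not used. In an exact permutation test of each member by itself, Mvd, Idi1, Fdps and Fdft1 gave p = 0.1 (two-sided), the smallest that 3 arrays against 3 can give. Idi1 and Fdft1 passed the adjusted threshold in limma when arrays were scaled to their median (adjusted p = 0.0306 and 0.0377), where 73 of all genes were called lower (0.437%) and the median difference of all genes was -0.26.

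Slide and diet were partly bound together, since slide 1 held all normal chow arrays and a single high-Chol array, and slide 2, read with another version of the scanner software, held the other high-Chol arrays. On slide 1 alone, where the high-Chol array met the 3 normal chow arrays, it lay below all of them in Mvd, Idi1, Fdps and Fdft1. The share of all genes in that state was not counted, so nothing is read from how many members were in it. The distance of that high-Chol array from the normal chow mean was -0.97 in Mvd, -1.39 in Idi1, -1.19 in Fdps and -1.06 in Fdft1. In Acat2 it was 0.60 above that mean, and in Hmgcs1, Mvk and Pmvk it was -0.73, -0.34 and -0.20 from it, inside the normal chow range. These are also the values of limma with slide as a block, which called no member (lowest adjusted p 0.490, in Idi1) and 0 of all 16722 genes lower. The arrays of slide 2 differed from the normal chow mean by -1.98 in Idi1, -2.10 in Fdps, -1.78 in Fdft1 and -1.57 in Mvd. When that array of slide 1 was left out, limma called 761 of all genes lower (4.55%), among them Fdft1, Idi1, Mvk and Fdps (adjusted p = 0.0148, 0.0221, 0.0293 and 0.0429). A part of the slide in these differences cannot be told apart from that of the diet on slide 2.

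**Figure D3:**
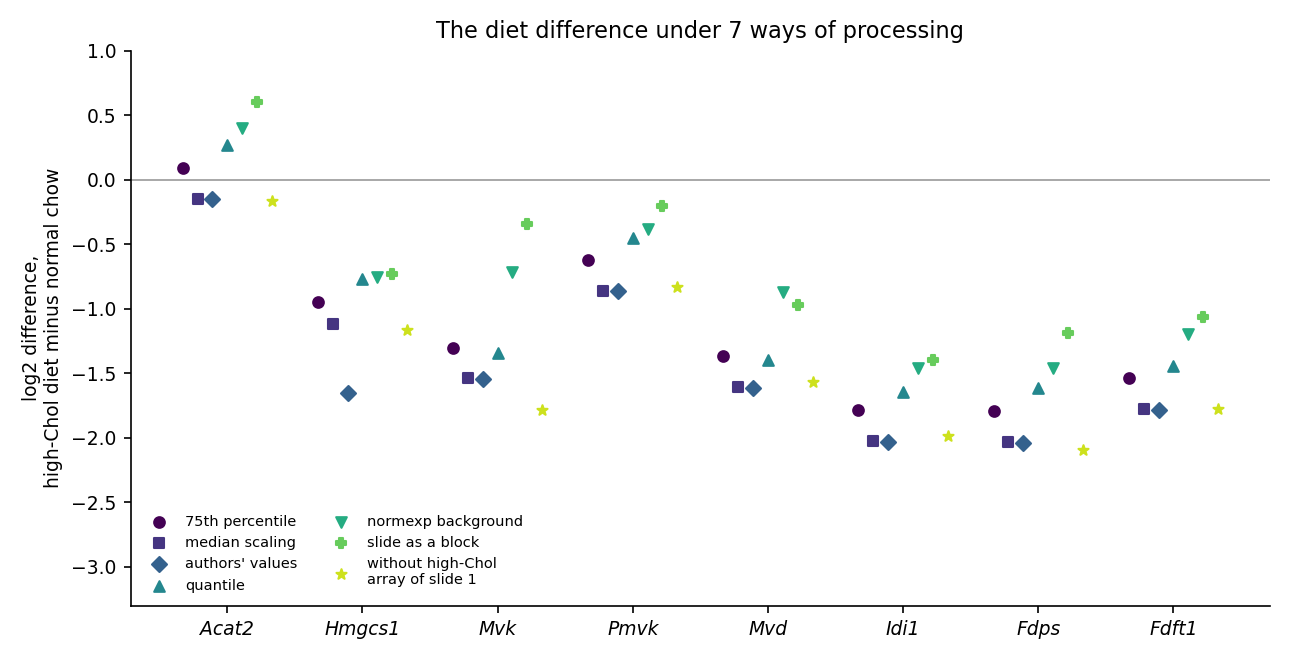
The log2 difference of each gene, high-Chol diet minus normal chow, under 7 ways of processing the arrays. Mvd, Idi1, Fdps and Fdft1 lie below 0 under all of them, between -0.87 (Mvd, normexp background) and -2.10 (Fdps, slide 2 alone for the high-Chol diet), and Acat2 lies on either side of 0, below it with median scaling, with the authors' values and when slide 2 alone stands for the high-Chol diet.

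The first normal chow array was the highest of the 3 normal chow arrays in 8 of 8 members, beside 31.4% of genes with a value on every array, and this count stayed at 8 with normexp, median and quantile processing. The second normal chow array was the lowest of the 3 in 8 of 8 members (27.8% of all these genes), but in 7 with median scaling and in 1 with normexp. The first array had the smallest share of probes well above background, 50.5% against 60.2 to 67.2% on the other arrays, and the part of this in the order was not tested. The SD over the normal chow arrays had a median of 0.67 among the members, from 0.32 in Pmvk to 1.17 in Hmgcs1, against 0.20 among all genes. On the high-Chol diet the median SD was 0.51, against 0.25. Set against the normal chow means, the median member stood at 0.71, -0.45 and -0.14 on the normal chow arrays and at -0.85, -1.57 and -1.72 on the high-Chol arrays. All high-Chol arrays lay below all normal chow arrays in this median.

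The difference between a pair of members on the same array does not depend on how the array was scaled. Over the 28 pairs its SD on normal chow had a median of 0.34, against 0.67 for single members. Acat2, with the strand mismatch of its probe given above, was taken as the reference after its values were seen, and each ratio below is read between diets only, not as a level of 1 gene against the other. Idi1 relative to Acat2 was 0.09, -0.09 and -0.28 on the normal chow arrays against -2.09, -1.93 and -1.90 on the high-Chol diet. Fdps relative to Acat2 was 0.61, 0.04 and 0.55 on the normal chow arrays against -1.39, -1.29 and -1.77 on the high-Chol diet. In each of these ratios the spread within a diet was small beside the distance between the diets, which was -1.88 for both genes.

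For Fdft1 the ratio was -1.51, -1.53 and -1.62 on normal chow, with an SD of 0.06, and -3.21, -3.56 and -2.77 on the high-Chol diet, or -1.63 between the diet means. For Mvd the ratio differed by -1.46, for Mvk by -1.39 and for Pmvk by -0.71. The diets overlapped in none of the 6 ratios that had a value on every array, beside 248 of 16429 genes (1.51%) whose ratio to Acat2 was lower without overlap, although in Pmvk the nearest arrays were as close as -0.72 and -0.73. With normexp or quantile processing 5 of 6 ratios did not overlap. Hmgcs1 lacked an array and gave -0.85 and -0.85 on the high-Chol diet, below its 1.22, -0.01 and 0.23 on normal chow. Acat2 was the member with the only positive difference, so the lower side of every ratio follows from that choice and nothing is read from it. Among Idi1, Fdps and Fdft1 the differences between pairs were -0.01 to 0.26 and all 3 pairs overlapped. Of the 15 pairs without Acat2 that had a value on every array, 2 did not overlap, Idi1 and Fdps relative to Pmvk (-1.16 and -1.17).

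**Figure D4:**
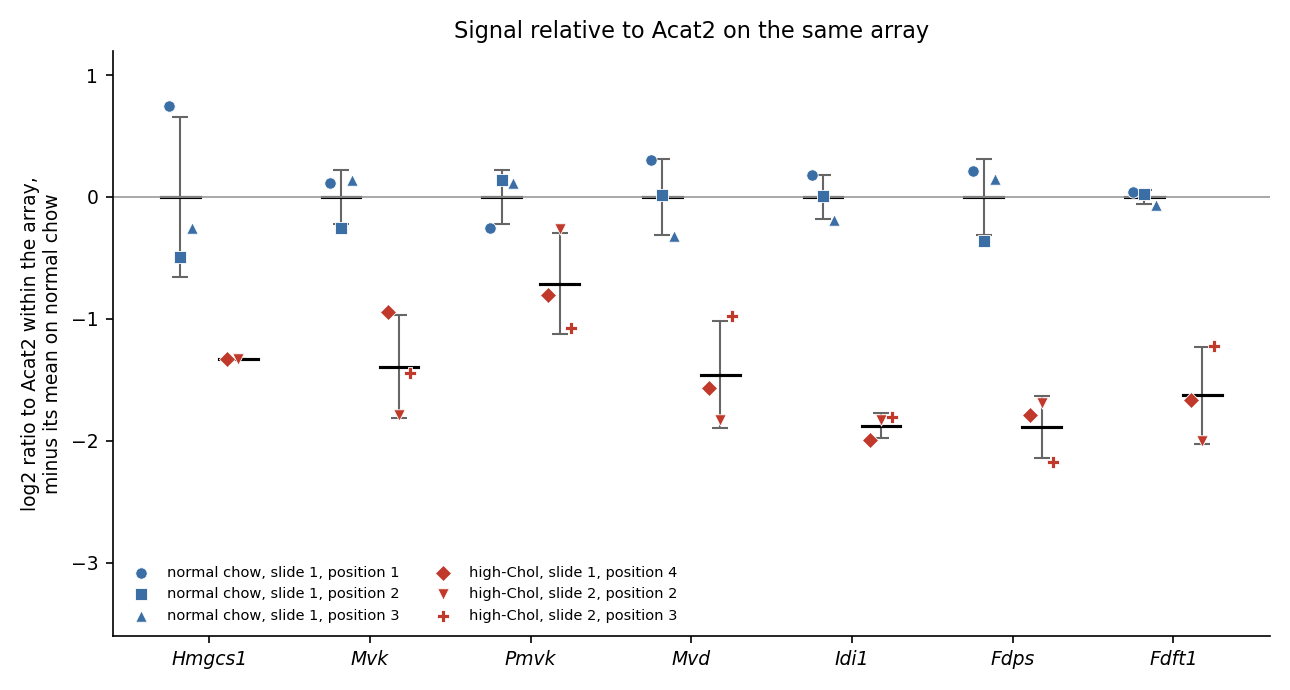
Log2 ratio of 7 genes to Acat2 on the same array, minus the ratio's mean on normal chow. Blue symbols are normal chow arrays, red symbols high-Chol arrays, black bars means and whiskers SD. All red symbols lie below all blue symbols in every gene, by the least in Pmvk, a direction that follows from the choice of Acat2 after its values were seen, and Hmgcs1 has no value for the last high-Chol array.

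The later sterol steps, from squalene epoxidase to the last reductases, had a median difference of -1.34, and 11 of 11 genes were lower. Of these, 5 passed the adjusted threshold, Sqle (-2.97), Sc4mol (now Msmo1, -2.10), Cyp51 (-2.01), Nsdhl (-1.71) and Hsd17b7 (-1.61), and the differences of the list ran from -2.97 to -0.74. Lss, which forms lanosterol, differed by -1.34 and Dhcr7, the last reductase of a branch, by -1.22, and neither passed the threshold. With slide as a block the median of the list was -1.02 and with normexp background -0.91. In both no gene of it was called, and 0 of all 16722 genes were called lower. Tm7sf2, a sterol reductase, had a value on the high-Chol array of slide 1 but on no other high-Chol array, and without it the 10 other genes were all lower, with a median of -1.47, -0.90 with slide as a block and -1.03 with normexp. When single arrays were left out, 9 of these genes were called without the high-Chol array of slide 1, where 4.55% of all genes were called lower. Without the first normal chow array 1 was called (0.144% of all genes), and without any other array 0 (0 to 0.0957% of all genes).

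Among 9 genes of SREBP control, 8 were kept, 6 were lower and 1 was called lower by limma. No gene of the list was called with normexp or with slide as a block, where 0 of all genes were called lower. Removal of the high-Chol array of slide 1 gave 3 calls (4.55% of all genes), and removal of any other single array gave none (0 to 0.144% of all genes). Insig1, which holds SREBP back and is itself a target of it, differed by -0.83, and Srebf2, the gene of SREBP-2, by -0.59, with -0.18 and -0.32 when slide was a block and -0.43 and -0.29 with normexp. Insig2 and Srebf1 had higher means on the high-Chol diet (1.14 and 0.22), and neither passed the test. The mean of Srebf1 turned to the lower side with median scaling (-0.02). The median of the list was -0.56, and it was -0.20 with slide as a block and -0.23 with normexp. A list drawn up for the supply of acetyl-CoA in the cytosol also held Me1, malic enzyme, which the study counts among the lipogenic genes. Acss2 (-0.66), Slc25a1 (-0.50), Me1 (-0.45) and Acly (-0.10) were all lower, with a median of -0.48. None was called by limma (1 at an unadjusted p of 0.05). That median was -0.13 with slide as a block, -0.17 with normexp, where 3 of the 4 were lower, and -0.26 without the last high-Chol array.

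Genes that draw isoprenoids away from sterols were measured as well. Of 12, 11 were kept, 9 were lower and 0 were called, with a median of -0.16 and a range from -0.65 in Rabggta, a subunit of the enzyme that prenylates Rab proteins, to 0.27 in Pggt1b, a subunit of an enzyme that prenylates other small GTPases. Limma at an unadjusted p of 0.05 gave 1 of these genes as lower, and the median was -0.09 with slide as a block and with normexp. With median scaling it was -0.40, where the median of all genes was -0.26. Ggps1, which extends farnesyl to geranylgeranyl diphosphate, differed by -0.09. Paralogs and enzymes of related chemistry in mitochondria or peroxisomes were also measured. Acat1, the mitochondrial thiolase, differed by -0.13 and Idi2 by -0.25. With slide as a block Acat1 was at 0.01 and Idi2 at -0.14, and with normexp Acat1 was at 0.11 and Idi2 at -0.71. Together, 5 of 7 of these genes were lower, and 0 passed limma even at an unadjusted p of 0.05. Their median of -0.25 turned to 0.01 with slide as a block and 0.03 with normexp. It was -0.07 without the last high-Chol array and -0.49 with median scaling.

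**Figure D5:**
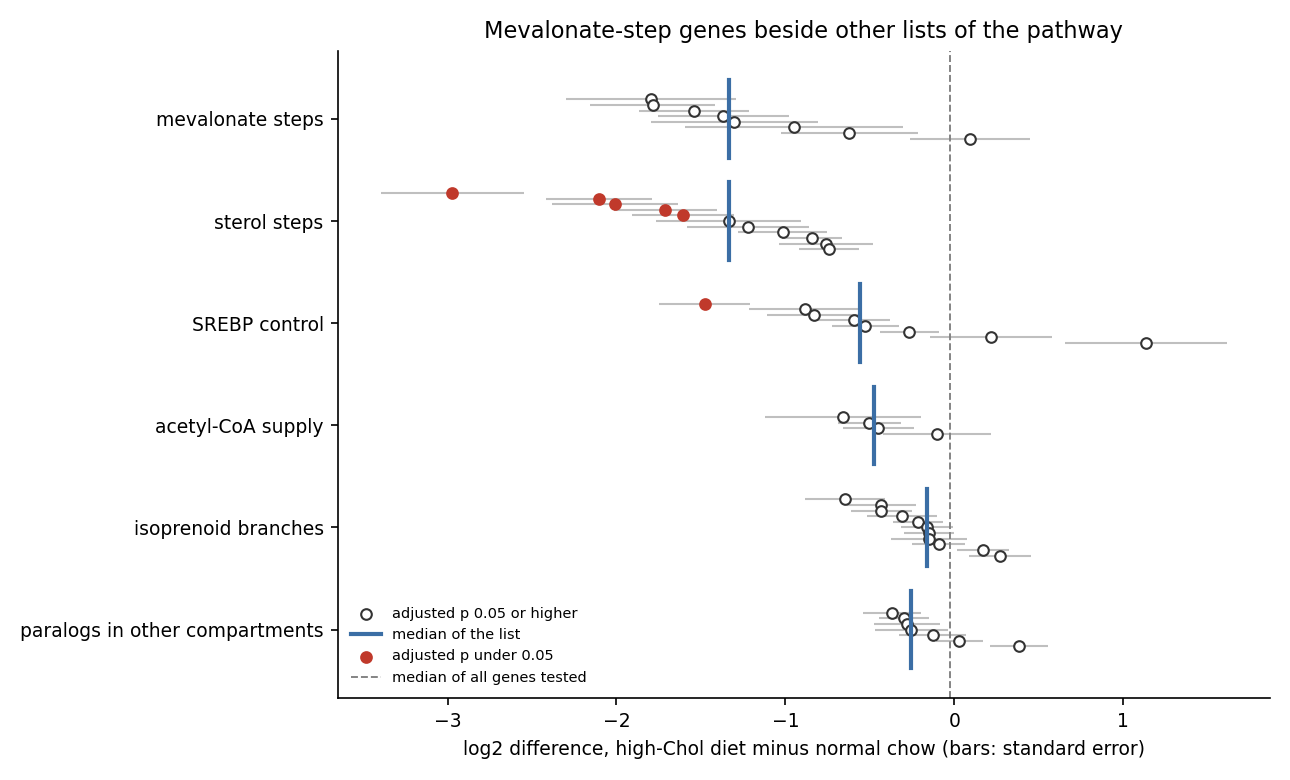
Log2 difference, high-Chol diet minus normal chow, of each gene in 6 lists of the pathway, with standard errors. The acetyl-CoA supply list includes Me1, malic enzyme. Filled red points passed an adjusted p of 0.05 in limma, blue bars are list medians and the dashed line is the median of all genes tested. The mevalonate and sterol steps share a median of -1.34, the acetyl-CoA supply and SREBP control lie at -0.48 and -0.56, and the isoprenoid branches and paralogs at -0.16 and -0.25, and with slide as a block these 4 medians are -0.13, -0.20, -0.09 and 0.01 against -0.85 and -1.02 for the mevalonate and sterol steps. The paralogs also change sign with normexp, and the lone member above 0, Acat2, turns below 0 with median scaling.

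The genes whose values followed the median of the 8 members most closely over the 6 arrays were ranked by the mean absolute difference after each was centred on its own mean. Of 14027 candidates, the nearest were the sterol-step genes Dhcr7 (0.12), Lss (0.16) and Nsdhl (0.19), with 0.71 as the median over all candidates. The next were 5430417C01Rik, 1700016K19Rik, Mmab, Tesc, Gpr110, Odf4 and Olfr948, at 0.23 to 0.28. Dhcr7 read 5.23, 4.16 and 4.58 on the normal chow arrays against 3.99, 3.44 and 2.88 on the high-Chol diet. Its high first array is like that of the members, for which the ranking selects. Among the members, Idi1, Fdft1 and Mvd lay at 0.18, 0.19 and 0.19 from their own median and Acat2 at 0.76. Hsd17b7 ranked 12, Sc5d 39, Cyp51 44, Sc4mol 54 and Ebp 63, whereas Sqle, with its larger difference, ranked 9025. The likeness is a description over 6 arrays, and without the first normal chow array Dhcr7 was the 1 sterol step left among the 10 nearest. Of the 10 genes, 3 to 8 remained when single arrays were left out, 4 with normexp, 6 with quantile normalization and 9 with median scaling.

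Markers of other cells and states also differed between the diets, and their part in the members' differences was not tested. The 10 hepatocyte markers were all kept and 9 had lower means, none called by limma (3 lower and 1 higher at an unadjusted p of 0.05), with a summed linear signal of 3211 to 3407 times the 75th percentile on normal chow and 2403 to 2800 on the high-Chol diet, and Alb, the gene of albumin, differed by -0.34. Their median was -0.32, and it was -0.24 with slide as a block and -0.06 with normexp, where 7 of the 10 were lower. Macrophage markers had a summed signal of 92.0 to 117 on normal chow and 250 to 336 on the high-Chol diet. Of these, 9 of 10 were kept, 8 were higher and 4 called (Ccr2, Marco, Lyz2 and Cd68). At an unadjusted p of 0.05 in limma 6 were higher and 1 lower (Cd163, -0.91). The sum rests mostly on Lyz2, the brightest (means 5.90 and 7.68), while Csf1r and Clec4f differed by 0.28 and 0.41. Ccr2 read -5.31 on the first normal chow array, below every signal well above background there, so the size of its difference is uncertain. Neutrophil markers summed to 1.55 to 1.75 and 9.23 to 15.4, with S100a8 and S100a9 called among 3 kept of 6, while Ngp and Elane did not pass the filter. Lymphocyte markers (8 of 9 kept, 1.03 to 1.32 and 1.27 to 2.04) and endothelial markers (7 of 7, 29.9 to 33.8 and 30.3 to 33.3) gave no call (3 and 1 higher at an unadjusted p of 0.05). The lymphocyte median of 0.69 became 0.13 with slide as a block and -0.42 with normexp, where 7 of the 8 were lower. Of 9 stellate and biliary markers (8.04 to 10.6 and 8.99 to 12.2) Col1a1 was called higher. Over all genes, the 450 called higher became 11 with slide as a block and 0 with normexp. The call of Col1a1 was lost with median scaling (adjusted p = 0.111 from limma). All 7 calls of macrophage, neutrophil and stellate markers were lost with slide as a block (adjusted p of 0.0767 to 0.250) and with normexp. Their differences, 1.04 (Col1a1) to 3.21 (S100a8), were 1.16 (Col1a1) to 2.85 (S100a8) with slide as a block, with Ccr2 going from 3.02 to 2.46 and S100a9 from 2.90 to 2.83, and with normexp Ccr2 was 0.17, S100a8 1.07 and S100a9 2.62.

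Clock genes of the day phase differed as well, with 9 of 9 lower, none called by limma (7 at an unadjusted p of 0.05) and a median of -1.80. That median was -1.02 with normexp and -2.82 with slide as a block, where 8 of the 9 were lower and Nr1d1 turned to 0.47. In 7 of the 9 (not Per1 and Nr1d1) the last high-Chol array was the highest of the 3. Dbp, a clock output gene, read 6.57, 6.49 and 6.80 on the normal chow arrays against 0.86, 0.86 and 5.64 on the high-Chol diet, so that the last array lay nearer to normal chow than to the other high-Chol arrays. On that same array Acat2, Mvk, Pmvk, Idi1 and Fdps had the lowest of their high-Chol values, and Mvd and Fdft1 were below every normal chow array. All 3 kept clock genes of the night phase were higher, none called and all 3 at an unadjusted p of 0.05. Of 7 fasting-induced genes kept, 4 were lower and 3 higher, none called and 3 at an unadjusted p of 0.05.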

How the data were processed

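The authors deposited, for each array, the scanner output with spot intensity after background subtraction by Agilent Feature Extraction (9.1 per the labels, and 9.5 in the headers of slide 1), not normalized between arrays. They also deposited log2 values for 23458 probes, with a single value for each diet, made in Gene Spring GX, whose normalization settings are not given in the sources used here. The columns of this table had medians of -0.0019 and -0.27, and its diet differences matched median scaling to an offset of -0.0063.

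From the intensity, log2 was taken after division by the array's 75th percentile (271 to 799 units). Of 45018 spots, 1639 controls and 75 to 196 outlier spots per array were left out. Probes were kept if every array of 1 diet or of both read them as well above background, and the brightest stood for a gene. Diets were compared with limma 3.58.1 (R 4.3.3), Benjamini-Hochberg adjusted over 16722 genes. The fit was also run on simulated data with independent noise and no slide effect, which cannot speak to slide and diet on these arrays. Exact permutation tests used scipy 1.17.1. Positions are those of the array annotation (mm7), and promoters those of RefSeq (GRCm38.p6). The number of arrays limits the precision. Named genes are the 8 members with all their probes, list genes that passed the test or stand at the ends of a list, and the 10 nearest in pattern; the other list genes given were chosen after their values were seen. Members and lists were chosen with earlier results of these data known. Some single genes are not reported here.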

Additional observations from a re-analysis of the deposited data

How the results depend on the processing

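Mvk, Pmvk, Mvd, Idi1, Fdps, Fdft1 and Hmgcs1 stayed lower on the high-Chol diet in the 13 of 19 alternatives that could move a difference (1 of them, with outlier spots kept, moved Hmgcs1 alone), while Acat2 turned to -0.15 with median scaling and with the authors' values, -0.14 without the second normal chow array and -0.17 when the high-Chol array of slide 1 was omitted (-0.17 to 0.38 over all arrays left out in turn). The median difference of the members, -1.34, became -0.81 with normexp background, -0.85 with slide as a block and with the high-Chol array of slide 1 alone, and -1.67 to -0.95 when an array was left out. Members called lower, 0 at first, numbered 2 (Idi1 and Fdft1) with median scaling (0.437% of all genes), with the filter for all 6 arrays (53 genes, 0.37%) and with a trended robust prior (0.532%), 1 (Fdps) with probes averaged per gene (38 genes, 0.227%), 4 (Mvd, Idi1, Fdps and Fdft1) with the methods' t-test unadjusted (8.29%), and 0 to 4 without an array, the 4 when slide 1 lost its high-Chol array (4.55%). Members without overlap numbered 2 (Mvd and Fdps) with normexp (1.54% of all genes) and 4 to 6 without an array, where 16.4 to 25.6% of all genes did not overlap, a state that fewer arrays make easier by construction.

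Genes called higher, 450, became 0 with normexp, 26 without the filter, 11 with slide as a block, 4 and 1402 with the methods' t-test adjusted and unadjusted, and 42 to 2313 without an array. Genes called lower, 38, became 0 with normexp, without the filter and with slide as a block, 73 with median scaling, 61 for single probes, 89 with the trended robust prior, 1 and 1387 with the methods' t-test adjusted and unadjusted, and 0 to 761 without an array. Sterol steps called, 5, became 0 with normexp and with slide as a block, 2 with quantile normalization and 0 to 9 without an array (9 when slide 1 lost its high-Chol array). Of the 10 nearest genes, 1 to 4 were sterol steps without an array, 1 without the first normal chow array. The cause of these shifts was not tested.

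The ratios, nearest genes, order of the normal chow arrays and single-slide values were chosen after seeing the data. No paired analysis was possible because the arrays carry no replicate numbers that link the diets. With 3 arrays per diet and 1 high-Chol array on the slide of the controls, the arrays limit every call above.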

Other observations

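Mmab, the gene of an enzyme that makes adenosylcobalamin, lies head to head with Mvk, and 259 bases of the 300-base promoter windows of the pair are the same stretch read from opposite strands (GRCm38.p6). Mmab ranked 6 by likeness to the median of the mevalonate-step genes. It was not among the 10 nearest with normexp, nor when the second or the third normal chow array, the high-Chol array of slide 1 or the last high-Chol array was left out. Mmab read 1.24, 0.64 and 0.92 on the normal chow arrays against 0.33, -0.08 and -0.39 on the high-Chol diet. The diets did not overlap, which held in this direction for 14.0% of genes with a value on every array. The difference was -0.98 (standard error 0.24, adjusted p = 0.0956 from limma). Because Mmab was picked by its likeness to the members, its direction follows from that choice. The brighter Mvk probe gave -1.30 on the same arrays, with overlapping diets. Each CCAAT match of the shared stretch stands in both windows.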
